A study of Mus musculus with 5 samples.

Results

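The mitosis and G2/M genes are 60 genes that encode the regulators of mitotic entry, the mitotic kinases, the spindle checkpoint, the kinetochore, the spindle motors, the cytokinesis machinery and the proteins that compact and untangle chromosomes. The list names genes by their function, with earlier results of these data known, and uses no measured value as a threshold. Each symbol was matched to an Ensembl identifier of the files, which found all 60 among the 41388 genes of the files. Their RNA was measured by bulk RNA sequencing in 5 libraries of macrophages sorted from the mouse aorta. The donors of the 3 adventitia libraries were mice labelled strain C57BL/6 and genotype ApoE-/-, which lack apolipoprotein E, after 28 weeks of high fat diet, with 6 mice given for the group. Cells of the outer layer, digested from the full length of the vessel with its abdominal part, were sorted as PI- CD64+, where propidium iodide (PI) stains dead cells. Each of the 2 intima libraries pooled 5 mice of strain C57BL/6 and has no genotype or diet label. Their cells were taken from the thoracic aorta after removal of the outer layer and sorted as PI- CD64+ CD11c+ MHC II+ cells. Layer, aortic segment and sort gate differed between the groups, the ApoE-/- genotype and the high fat diet are recorded for the adventitia alone, and the parts of these in any difference cannot be told apart. The labels do not say which mice went into which adventitia library, and p-values here reflect only how far these libraries spread, part of which may be technical.

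A dividing cell makes most of its mitotic RNA and protein anew in each cycle, from late S phase to the end of mitosis, and destroys much of the protein at mitotic exit. Cyclin B bound to the kinase CDK1 drives entry into mitosis, the spindle checkpoint holds the cell until every chromosome is attached, and the anaphase-promoting complex (APC/C) then tags securin and cyclin B for destruction. Many of the genes are switched on together through a short promoter sequence, the cell cycle genes homology region (CHR), which is bound by MuvB complexes with either B-MYB and FOXM1 (activating) or p130 and E2F4 (repressing, in resting cells), and through CCAAT boxes bound by NF-Y. Tissue macrophages, although differentiated, can divide in place, and resident intimal macrophages of the mouse aorta are among those known to do so.

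The shared promoter sequence is shown first because it was read from the genome and not from the expression values. Of the 60 genes, 50 had a promoter window in the RefSeq table (build GRCm38.p6), which spans 250 bases before to 50 bases after the gene's start. The CHR was searched as TTTGAA or TTCGAA on both strands, so that a match on the opposite strand reads TTCAAA or TTCGAA, and the CCAAT box as CCAAT on both strands, ATTGG on the opposite one. The 2 kinds of element share no bases in the windows printed. A CHR lay in the window of 41 of the 50 genes (82.0%), against 21.7% of all 27025 genes with a window and 16.7% of the 10166 genes that were also tested for expression. Within 100 bases before to 50 after the start, 38 of 50 genes had one (76.0%), against 9.87% of all genes and 6.91% of the tested genes. At least 1 CCAAT box was present in 36 of 50 (72.0%), against 41.1% and 42.5%. Both a CHR within that distance and a CCAAT box were found in 32 of 50 (64%), against 3.93% and 2.94%. The windows below belong to 4 genes with both elements, the most abundant among those that the rule for described genes picks, which leaves out Bub3 and Bub1b. They are given in lower case, 5′ to 3′ on the gene's strand, with CHR and CCAAT matches in capitals. The Top2a window, at chr11:99024140-99024439 on the minus strand, held 4 CHR matches and 6 CCAAT boxes. Mki67 (chr7:135716330-135716629, minus strand) had 2 and 3, Cdk1 (chr10:69352863-69353162, minus strand) 2 and 3, and Cenpa (chr5:30666636-30666935, plus strand) 1 and 2.
Top2a: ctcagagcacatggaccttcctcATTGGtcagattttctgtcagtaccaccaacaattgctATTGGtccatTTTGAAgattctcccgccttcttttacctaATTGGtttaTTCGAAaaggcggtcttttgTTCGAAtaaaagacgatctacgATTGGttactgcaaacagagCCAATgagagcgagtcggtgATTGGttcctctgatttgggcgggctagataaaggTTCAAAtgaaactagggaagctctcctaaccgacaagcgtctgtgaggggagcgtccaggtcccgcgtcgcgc
Mki67: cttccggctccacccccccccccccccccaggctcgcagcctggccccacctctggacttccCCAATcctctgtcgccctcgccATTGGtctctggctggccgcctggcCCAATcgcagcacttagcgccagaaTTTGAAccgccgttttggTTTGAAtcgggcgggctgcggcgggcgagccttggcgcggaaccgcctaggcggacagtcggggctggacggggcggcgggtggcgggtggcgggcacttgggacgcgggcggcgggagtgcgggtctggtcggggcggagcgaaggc
Cdk1: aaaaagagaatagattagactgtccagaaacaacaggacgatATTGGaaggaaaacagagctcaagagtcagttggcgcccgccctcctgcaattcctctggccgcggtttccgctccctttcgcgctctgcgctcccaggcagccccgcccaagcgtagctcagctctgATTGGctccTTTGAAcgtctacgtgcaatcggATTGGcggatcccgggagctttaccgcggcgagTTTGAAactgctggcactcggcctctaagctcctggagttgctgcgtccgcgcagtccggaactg
Cenpa: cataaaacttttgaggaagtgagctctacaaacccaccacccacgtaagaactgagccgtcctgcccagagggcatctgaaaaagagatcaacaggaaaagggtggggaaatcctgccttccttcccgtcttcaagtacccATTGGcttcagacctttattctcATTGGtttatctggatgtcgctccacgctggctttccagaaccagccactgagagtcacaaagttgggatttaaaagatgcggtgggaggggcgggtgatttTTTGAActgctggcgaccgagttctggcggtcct

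The elements were placed at different distances. CHR matches of the mitotic genes were most frequent in the last 50 bases of the window, downstream of the start, in 49.1% of their 53 windows against 2.46% of all windows. CCAAT boxes were most frequent in the 50 bases before the start, in 47.2% against 9.03%. A match is a description of the letters and not a shown binding site. Within the list, genes with and without the element had similar differences between the groups of libraries: the median log2 difference, intima minus adventitia, was 1.38 over the 38 tested genes with a CHR near the start and 1.52 over the 12 without one.

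**Figure D1:**
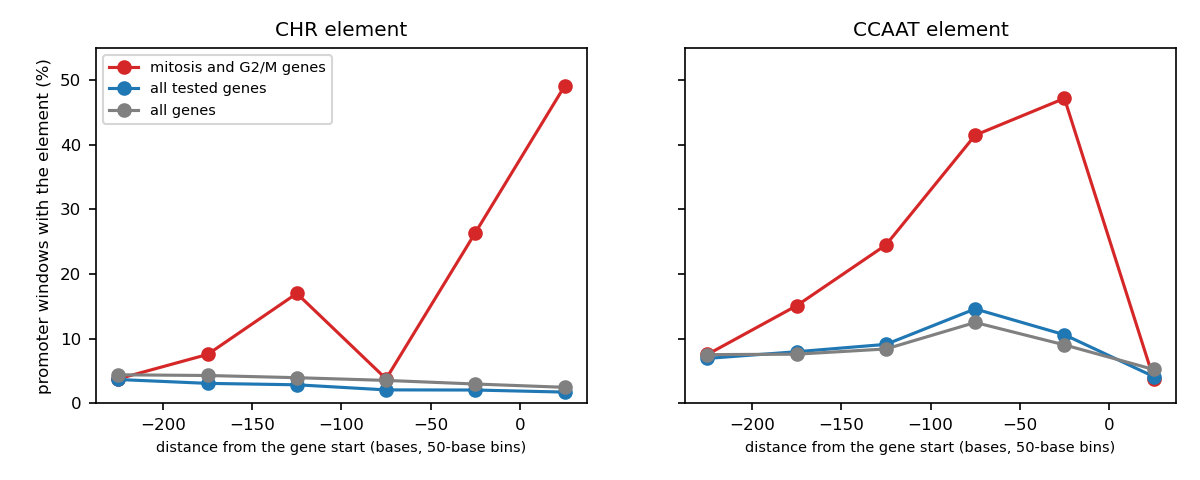
Share of promoter windows (y axis, percent) with a CHR (left) or CCAAT (right) match whose first base falls in each 50-base bin, by distance from the gene start (x axis, bases), for the 53 windows of mitosis and G2/M genes, windows of all tested genes and all windows. The CHR curve of the mitotic genes peaks at 49.1% just after the start and the CCAAT curve at 47.2% just before it.

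The libraries held 3941381 to 20806925 counted reads, with 3 reads worth 0.144 to 0.761 CPM (a gene's reads scaled to a common library total). Levels below are TMM-normalised CPM, which scales the libraries to one another. Apoe, disrupted in the ApoE-/- mice, was at 10.9 to 18.2 CPM among adventitia libraries and 5563 and 4409 CPM among intima libraries, which matches the labels. Macrophage markers had a summed level of 20473 to 32034 CPM among adventitia libraries and 29852 and 21612 CPM among intima libraries, and none of the 10 was at 0 in an intima library. Markers of other cells moved with the groups. The 12 endothelial markers summed to 34.7 to 53.6 CPM among adventitia libraries and 1196 and 1168 CPM among intima libraries, with Cldn5 at 0 in intima replicate 1. Of these, 5 of 11 tested rose and none fell. The log2 difference was above 0 for 10 and below for 1, Kdr, with 3 reads and 1 read in the intima. The 9 smooth muscle markers summed to 14.8 to 51.2 against 345 and 96.2 CPM, with Myh11 and Cnn1 at 0 in intima replicate 2, and 1 of 7 tested rose. Acta2 (171 and 24.6 CPM) and Tagln (124 and 52.3 CPM) made up most of the intima sums. Of the 7, 4 had a log2 difference above 0 and 3 below, Myh11 (-2.09), Myocd (-2.49) and Mylk (-0.50). The 8 fibroblast markers summed to 613 to 1470 against 314 and 236 CPM, with Pdgfra, Lum and Dpt at 0 in intima replicate 2, and 1 of 8 tested fell. The 9 T and NK markers summed to 7.14 to 8.53 against 129 and 90.3 CPM, with no call among 3 tested. Cd4 made up nearly all of the sum in intima replicate 1, at 128.2 CPM, and was at 39.3 CPM in replicate 2. Cd3e, Cd3d, Cd3g, Trac and Cd8a were at 8.71 to 12.2 CPM in intima replicate 2, the library with the higher mitotic sum, and at 0 to 0.235 CPM in replicate 1. Of the 9, Cd3e, Cd3g, Trac, Ncr1, Nkg7 and Klrb1c were at 0 in intima replicate 1 and the last 3 in replicate 2. The 6 B cell markers summed to 204 to 777 against 1127 and 930.2 CPM, with no call, and Cd79a, Ms4a1 and Pax5 were at 0 in intima replicate 2. The 7 monocyte markers summed to 2169 to 2409 against 778 and 970 CPM, with 1 of 7 called, lower, and the 7 dendritic markers to 256.3 to 455 against 50.8 and 34.2 CPM, also with 1 of 7 called, lower. Cd209a made up most of the adventitia sums of dendritic markers, and Siglech (44.1 CPM) most of the sum in intima replicate 1. Of the 7 dendritic markers, 5 had a log2 difference below 0 and 2 above, Clec9a (2.99) and Ccr7 (0.32). The 6 neutrophil markers summed to 42.1 to 89.7 against 0.235 and 43.3 CPM, the 5 mast cell markers to 3.06 to 11.1 against 0.549 and 0.0504 CPM, and the 5 red cell markers to no more than 3.07 CPM in any library, with no call. The part of these cells in the mitotic values was not tested.

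Mitotic RNA was present in every library and was highest in intima replicate 2. Summed over the 60 genes, the level was 780, 1138 and 1479 CPM in adventitia replicates 1, 2 and 3, and 2085 and 3562 CPM for intima replicates 1 and 2, so that the groups did not overlap. In these bulk libraries a larger share of dividing cells and more mitotic RNA per cell cannot be told apart. The median gene was at 4.70, 11.5 and 13.2 CPM among adventitia libraries and at 13.4 and 36.4 CPM among intima libraries, where intima replicate 1 lay next to the adventitia libraries. Of the 60 genes, 24, 33 and 36 were at 10 CPM or more in the adventitia libraries, 34 in intima replicate 1 and 53 in intima replicate 2.

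**Figure D2:**
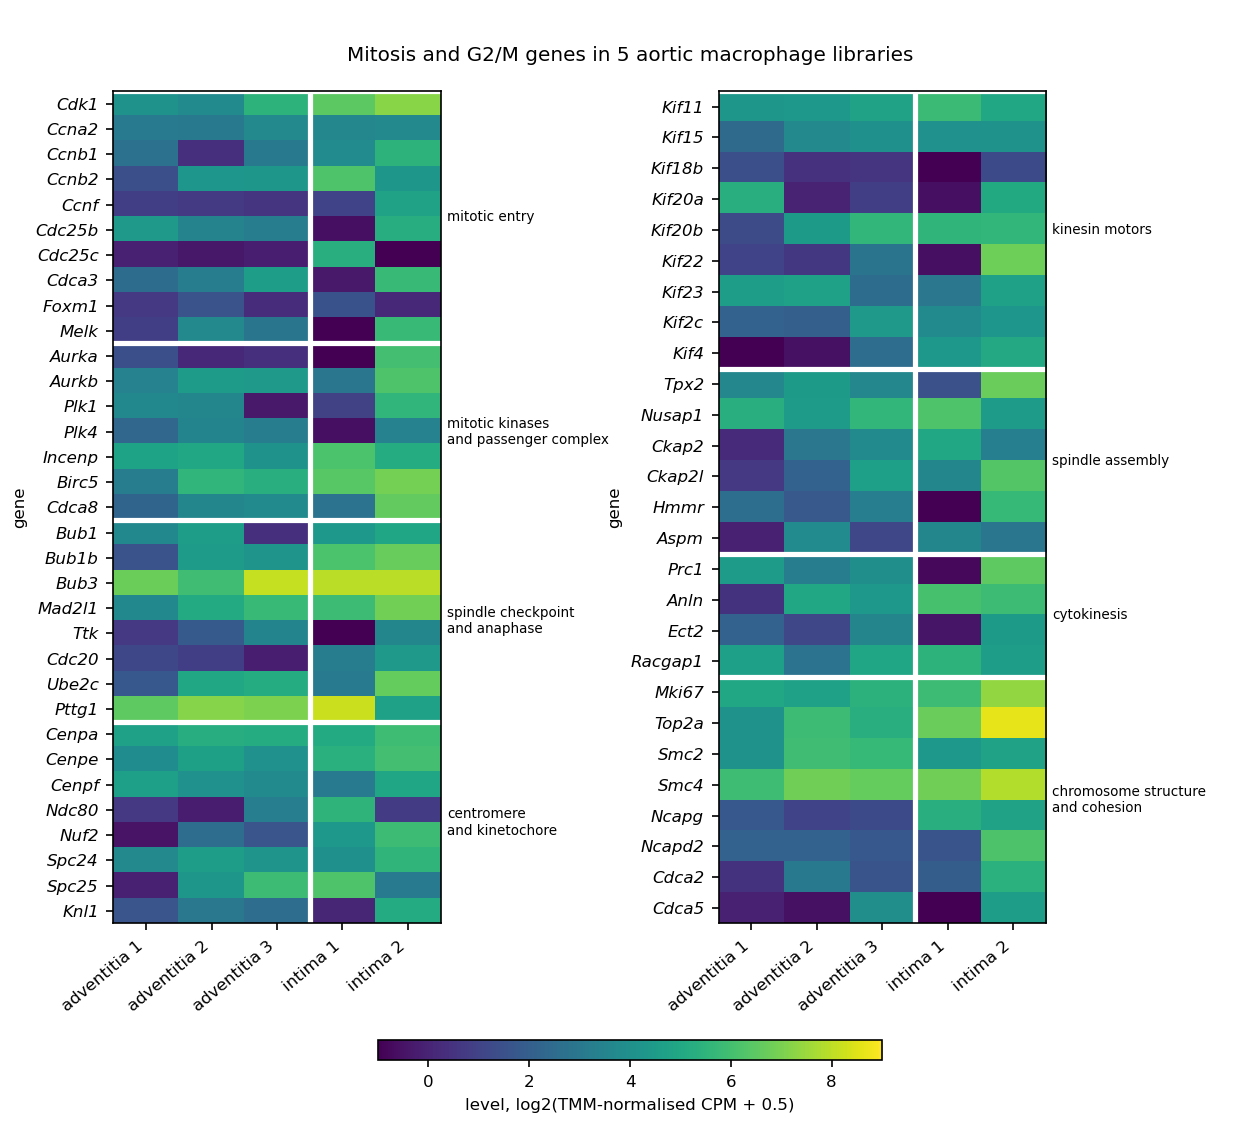
Level of each of the 60 genes (rows, grouped by role) in each library (columns), as log2 of TMM-normalised CPM plus 0.5 (colour scale). Intima replicate 2 is bright over most rows, with 53 genes at 10 CPM or more, while intima replicate 1 mixes bright rows with 14 genes under 1 CPM.

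After the filter on low counts 59 of the 60 genes were tested. Cdc25c did not pass the filter, as it had reads worth more than 1 CPM in 1 library only. None of the 59 passed edgeR's quasi-likelihood test after adjustment over all 13408 tested genes, of which 0.671% were called. At an unadjusted p under 0.05 there were 11 of 59, all higher in the intima, where the share over all genes was 8.16% higher and 14.3% lower. DESeq2 called 5 of the 59 (Cdc20, Cdk1, Ncapg, Nuf2 and Top2a), all higher, against 8.88% of all genes, and limma voom called Kif4 alone, against 6.26%. The log2 difference was above 0 for 55 of 59 genes (93.2%, with 53.4% over all genes), with a median of 1.25 against 0.14 for all genes. Both intima libraries lay above all adventitia libraries for 17 of the 59 genes, against 2375 of 13408 over all genes (17.7%). Both lay below for 0 of the 59, against 3111 of 13408 (23.2%). The 17 were Cdk1, Ccnb1, Ccnf, Incenp, Birc5, Bub1b, Mad2l1, Cdc20, Cenpe, Nuf2, Kif11, Kif15, Kif4, Anln, Mki67, Top2a and Ncapg. Fewer genes were above 0 under other settings, 42 of 59 with the replicate number as a block (71.2%, all genes 45.3%), 45 with limma voom (76.3%, all genes 44.3%) and 47 with upper-quartile scaling (79.7%, all genes 40.7%). In the block fit, adventitia replicate 3 has no intima library of its number and does not inform the difference. Without intima replicate 2, 35 of 60 genes were above 0 (58.3%, all genes 41.2%), with a median of 0.53 (all genes -0.62) and 1 call, Cdc25c (all genes 0.885%). Without intima replicate 1, 53 of 59 were above 0 (89.8%, all genes 41.9%), with a median of 1.64 (all genes -0.54) and 4 calls, Aurka, Kif22, Ncapd2 and Top2a (all genes 2.5%). In both cases the lone intima library is assumed to vary as the adventitia does, while the biological coefficient of variation was 1.28 between the intima libraries and 0.703 between the adventitia libraries, so that p-values from these fits may be too small.

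**Figure D3:**
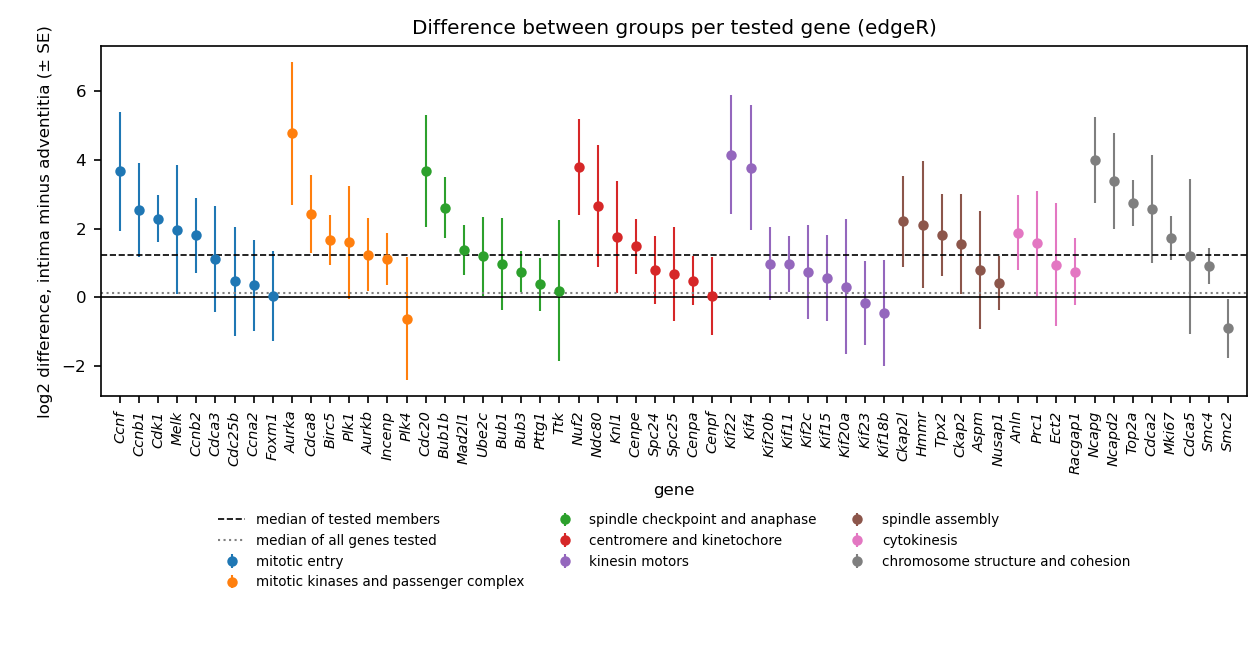
Log2 difference, intima minus adventitia, of the 59 tested genes (points, with standard errors as bars), grouped and coloured by role. Dashed and dotted lines mark the medians of these genes (1.25) and of all genes tested (0.14), and 55 points lie above 0.

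Taken one at a time, the intima libraries stood differently against the adventitia. Intima replicate 1 was above all 3 adventitia libraries for 24 of 59 genes (all genes 32.8%) and below all of them for 18 (all genes 41.6%). Intima replicate 2 was above all of them for 43 of 59 (all genes 37.5%) and below for 3 (all genes 38.8%).

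Among the regulators of mitotic entry, of 9 tested genes none was called, and all had a log2 difference above 0, with a median of 1.81. Cdk1, the kinase that drives mitosis, was at 16.6, 12.9 and 43.2 CPM among adventitia libraries and 87.7 and 150 CPM among intima libraries. Both intima libraries were above the adventitia, with a log2 difference of 2.29 (SE 0.69, n = 3 and 2, edgeR adjusted p = 0.112). The B-type cyclins, partners of CDK1, did not share one pattern. Ccnb1 was at 6.34, 0.761 and 7.81 CPM against 13.6 and 43.9 CPM, and intima replicate 2 was the highest library. Ccnb2 was at 2.19, 18.4 and 19.2 CPM against 74.4 and 19.1 CPM, and there intima replicate 1 was the highest and replicate 2 fell within the adventitia range. Ccna2, the cyclin of S phase and G2, lay close together in the 5 libraries, at 8.53, 7.80 and 12.4 against 11.9 and 12.6 CPM (log2 difference 0.36, SE 1.32). Ccna2 shares 914 exonic bases with Exosc9 on the opposite strand, which had more reads, and in all 14 of the 60 genes share exonic bases with another gene. Where the other gene is on the opposite strand, reads of the shared bases cannot be assigned without a stated strand setting. Ncapd2, Foxm1, Top2a and Ccnf share bases with genes on the same strand, which had at most 5 reads each. Ccnf, an F-box protein of the cyclin family, was at 0.901 to 1.31 CPM among adventitia libraries, 1.49 CPM for intima replicate 1 and 26.9 CPM for intima replicate 2, so that its log2 difference of 3.66 (SE 1.73) came from a single library.

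The CDC25 phosphatases, which switch CDK1 on, were each nearly missing from one intima library, and not from the same one. Cdc25c had 495 reads (38.8 CPM) in intima replicate 1 and 0 in replicate 2, and 2 to 4 reads in each adventitia library. Against a floor of 3 reads in replicate 2, replicate 1 was at least 257-fold higher, a bound that covers counting error only. Cdc25b had 2 reads in intima replicate 1 and 736 in replicate 2, a ratio of 236 (95% counting interval 65.2 to 1956), and stood at 21.0, 10.5 and 8.91 CPM among adventitia libraries. Cdca3, which helps to remove the CDK1 inhibitor WEE1, was at 0.314 and 54.8 CPM among intima libraries and 5.25 to 23.9 CPM among adventitia libraries. Melk, a kinase of proliferating cells, had 0 reads in intima replicate 1 and 1076 (54.2 CPM) in replicate 2. Foxm1, the transcription factor that activates late-G2 genes, was low everywhere, at 1.09, 2.47 and 0.701 CPM among adventitia libraries and 2.35 and 0.604 CPM among intima libraries (log2 difference 0.04, SE 1.31). Its sign changed with the scaling, as given in the closing section. Per kilobase of exon, Foxm1 averaged 0.259 RPKM in the adventitia and 0.269 RPKM in the intima, where Cdk1 averaged 7.04 and 34.5 RPKM.

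Among the mitotic kinases and the chromosomal passenger complex, of 7 tested genes none was called, and 6 had a log2 difference above 0, with a median of 1.60. Aurka, the centrosomal Aurora kinase, had the largest log2 difference of the list. It was at 2.19, 0.571 and 0.801 CPM among adventitia libraries, had 0 reads in intima replicate 1 and was at 63.6 CPM (1264 reads) in replicate 2. The groups overlapped and the log2 difference of 4.77 had an SE of 2.07 (edgeR adjusted p = 0.202). Without intima replicate 2 it was -6.41, a value that rests on 0 reads and is not a measured fold. Without replicate 1 the log2 difference was 5.66. Plk1, the polo kinase of mitotic entry and exit, was at 12.3, 11.6 and 0.300 CPM against 1.41 and 47.3 CPM. Plk4, which licenses centriole duplication, was at 4.38 to 10.9 CPM against 0.157 and 10.4 CPM and had a log2 difference of -0.61 (SE 1.78).

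The passenger complex corrects faulty attachments and its 4 subunits did not move alike. Aurkb, its kinase, was at 10.3, 21.9 and 20.2 CPM against 7.13 and 75.9 CPM, and Cdca8, borealin, at 4.16, 11.4 and 13.1 against 6.51 and 96.5 CPM. In both genes intima replicate 1 was within or below the adventitia range and replicate 2 above it. Birc5, survivin, was at 8.75, 47.6 and 38.6 CPM against 84.1 and 119 CPM, and Incenp, the scaffold, at 27.1, 30.4 and 17.3 against 71.9 and 35.8 CPM. These 2 subunits were above the adventitia in both intima libraries, with log2 differences of 1.68 (SE 0.73, edgeR adjusted p = 0.203) and 1.11 (SE 0.76, edgeR adjusted p = 0.427).

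The spindle checkpoint and anaphase genes summed to 704 and 653 CPM in intima replicates 1 and 2, a sum in which Pttg1 (293 and 25.6 CPM) went against most of the others, against 230, 320 and 528 CPM among adventitia libraries. All 8 had a log2 difference above 0, with a median of 1.09, and none was called. Bub1b, which encodes the checkpoint protein BUBR1, was at 2.41, 21.8 and 17.8 CPM against 70.5 and 101 CPM (log2 difference 2.61, SE 0.89, edgeR adjusted p = 0.124). Mad2l1, the inhibitor of the APC/C that unattached kinetochores produce, was at 12.3, 34.2 and 53.7 against 57.8 and 116 CPM, so that the groups just failed to overlap. Bub1 was at 12.3, 23.7 and 0.801 CPM against 19.7 and 28.7 CPM, low in adventitia replicate 3 alone. Ttk, the kinase that starts checkpoint signalling, had 0 reads in intima replicate 1, 11.6 CPM in replicate 2 and 1.09 to 11.01 CPM among adventitia libraries.

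Bub3, a checkpoint protein with roles outside mitosis, and Pttg1, securin, which guards separase until anaphase, had the highest group means of the list per kilobase. For Pttg1 the intima mean rested on replicate 1, at 146 RPKM. In intima replicate 2 it was at 12.8 RPKM, below Kif22 (52.9 RPKM) and others. Bub3 averaged 72.0 RPKM in the adventitia and 121 RPKM in the intima, and Pttg1 61.0 and 79.6 RPKM, where the next gene, Smc4 in the adventitia and Mad2l1 in the intima, reached 17.9 and 39.3 RPKM. Bub3 was the same in both intima libraries, at 247 and 251 CPM (ratio 1.02, 95% counting interval 0.972 to 1.06), and lay at 107, 59.8 and 277 CPM among adventitia libraries. Pttg1 went against most of the list. It was at 293 CPM for intima replicate 1 and 25.6 CPM in replicate 2, 11.4-fold apart (95% counting interval 10.4 to 12.6), with 90.1, 144 and 132 CPM among adventitia libraries between them. Without intima replicate 1 its log2 difference was -2.39 (edgeR adjusted p = 0.0683), against 0.38 (SE 0.76) with all libraries. Cdc20 and Ube2c, the activator of the APC/C and its ubiquitin-conjugating enzyme, were highest in intima replicate 2. Cdc20 was at 1.75, 1.33 and 0.400 CPM against 8.70 and 21.0 CPM (log2 difference 3.68, SE 1.63, edgeR adjusted p = 0.209). Ube2c was at 2.84, 31.3 and 35.8 against 8.47 and 98.7 CPM, with overlapping groups.

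The 8 tested centromere and kinetochore genes had a median log2 difference of 1.15, all above 0 and none called. The NDC80 complex, which holds microtubule ends, has 4 subunits that act together, and its RNAs took opposite sides in the intima libraries. Ndc80 was at 44.6 CPM for intima replicate 1 and 1.21 CPM in replicate 2, 36.9-fold apart (95% counting interval 24.6 to 58.1), and Spc25 at 75.1 and 7.96 CPM. Nuf2 was at 19.4 and 57.9 CPM and Spc24 at 15.8 and 46.4 CPM, both higher in replicate 2. In the adventitia Ndc80 was at 1.09, 0.381 and 9.31 CPM, Nuf2 at 0.219, 5.42 and 2.60 CPM, Spc24 at 12.5, 23.2 and 17.6 CPM and Spc25 at 0.438, 19.1 and 57.7 CPM. Nuf2 alone of the 4 had intima levels above every adventitia library, with a log2 difference of 3.79 (SE 1.39, edgeR adjusted p = 0.143). Cenpa, the histone variant that marks centromeres, was at 26.0, 37.4 and 36.1 against 34.6 and 58.7 CPM (log2 difference 0.49, SE 0.72). Cenpe, the kinetochore motor, was at 14.2, 24.9 and 16.3 against 40.8 and 63.4 CPM. Cenpf was at 24.5, 16.4 and 13.1 against 8.07 and 28.8 CPM, with a log2 difference of 0.04 (SE 1.13) whose sign changed with the scaling. Knl1, the scaffold for checkpoint proteins, had 7 and 690 reads in the intima libraries.

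The 9 tested kinesin motors had a median log2 difference of 0.74, with 7 above 0 and none called. Kif22, a chromosome-arm motor, differed most between the intima libraries among motors. It was at 1.53, 1.05 and 6.61 CPM among adventitia libraries, had 2 reads (0.157 CPM) in intima replicate 1 and was at 109 CPM in replicate 2, a ratio of 696 (95% counting interval 193 to 5753). Its log2 difference of 4.14 (SE 1.72, edgeR adjusted p = 0.183) became -4.11 without intima replicate 2. Kif11, the motor that pushes spindle poles apart, was at 19.03, 19.9 and 26.6 CPM against 55.4 and 30.9 CPM, with no overlap (log2 difference 0.98, SE 0.82). Kif4, a chromosome and midzone motor, had 0, 2 and 54 reads in the adventitia and was at 19.6 and 32.4 CPM among intima libraries (log2 difference 3.77, SE 1.82, edgeR adjusted p = 0.247). Kif4 shares 1366 exonic bases with Pdzd11 on the opposite strand, which had more reads. Kif15, a partner of Kif11 in spindle assembly, was at 16.1 and 16.8 CPM among intima libraries, just above the highest adventitia library at 15.7 CPM. Kif20a, needed for cytokinesis, was at 38.5 CPM in adventitia replicate 1 and 0.476 and 1.30 CPM in replicates 2 and 3, and at 0.157 and 33.1 CPM among intima libraries. Kif20a shares 2518 exonic bases with Cdc23 on the opposite strand, and without a stated strand setting reads of the pair cannot be told apart. Kif23, a motor of the midzone, was at 23.6, 26.3 and 5.30 against 7.29 and 25.7 CPM (log2 difference -0.16, SE 1.22). Kif20b was at 46.2 and 49.0 CPM among intima libraries and 1.97 to 48.7 CPM among adventitia libraries, Kif2c, a microtubule depolymerase, at 13.1 and 18.5 against 3.62 to 20.7 CPM, and Kif18b never above 2.19 CPM.

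All 6 spindle assembly and all 4 cytokinesis genes had a log2 difference above 0, with medians of 1.68 and 1.26 and no call. Tpx2, which activates Aurora A on the spindle, was at 12.0, 21.3 and 11.8 CPM among adventitia libraries and 2.27 and 103.9 CPM among intima libraries, below and above the adventitia range. Its log2 difference of 1.82 (SE 1.19) became -2.63 without intima replicate 2. Hmmr, a spindle-pole protein, had 0 reads in intima replicate 1 and 51.3 CPM (1018 reads) in replicate 2, at least 218-fold higher against a floor of 3 reads, with 2.95 to 9.11 CPM among adventitia libraries. Nusap1 and Ckap2, microtubule-binding proteins, went the other way, at 75.3 and 22 CPM and at 31.8 and 9.47 CPM for intima replicates 1 and 2. Ckap2l was at 11.4 and 80.7 CPM and Aspm, a spindle-pole protein, at 11.5 and 7.0 CPM. In the adventitia these 4 ranged from 0.438 CPM (Aspm, replicate 1) to 49.2 CPM (Nusap1, replicate 3).

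Prc1, which bundles the central spindle, had the widest ratio between the intima libraries among genes with a read in both. It had 1 read in replicate 1 and 1789 (90.1 CPM) in replicate 2, a ratio of 1149 (95% counting interval 206 to 45414), with 21.7, 8.75 and 15.1 CPM among adventitia libraries. Ect2, the exchange factor that activates RhoA at the cell equator, had 3 and 425 reads in the intima. Its partner Racgap1 was instead at 43.9 and 23.0 CPM, and at 24.3, 6.56 and 28.7 CPM among adventitia libraries. Anln, an actin-binding protein of the cleavage furrow, was at 67.5 and 57.6 CPM among intima libraries, above 0.875, 30.2 and 19.5 CPM among adventitia libraries (log2 difference 1.88, SE 1.08, edgeR adjusted p = 0.333). So of 4 genes that build the furrow and midzone, 2 were nearly missing from intima replicate 1 and 2 were not.

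Chromosome structure and cohesion genes had the highest median log2 difference of the 8 roles, 2.15, with 7 of 8 above 0 and none called. Top2a, the topoisomerase that untangles sister chromatids, came closest to the threshold of all 59 genes. It was at 16.4, 56.9 and 38.1 CPM among adventitia libraries (37.1 ± 20.3, SD, n = 3) and 103 and 395 CPM among intima libraries (249 ± 207, SD, n = 2). Both intima libraries lay above the adventitia, with a log2 difference of 2.74 (SE 0.68, edgeR adjusted p = 0.0868). It passed with DESeq2 (adjusted p = 0.0149), and in edgeR without the filter on low counts (adjusted p = 0.00297) and with the replicate number as a block (adjusted p = 0.0265). The block fit leaves few libraries to measure the spread, so that its p-value is uncertain. Top2a also passed in edgeR without intima replicate 1, with the borrowed spread described above. It did not pass under the other settings, where the adjusted p was between 0.0625 (edgeR, 1 CPM in all libraries) and 0.242 (edgeR, without adventitia replicate 1), with 0.113 in limma voom, and 0.187 in edgeR without intima replicate 2. Mki67, the coat protein of mitotic chromosomes behind the Ki-67 stain, was at 31.3, 26.0 and 42.8 CPM against 56.9 and 165 CPM (log2 difference 1.73, SE 0.64, edgeR adjusted p = 0.145).

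The condensin genes, which compact chromosomes, differed from one another. Ncapg was at 2.84, 1.52 and 1.90 CPM among adventitia libraries and 39.6 and 26.8 CPM among intima libraries, so that both intima libraries lay far above the adventitia, with a log2 difference of 3.99 (SE 1.26, edgeR adjusted p = 0.113). Ncapg shares 2876 exonic bases with Lcorl on the opposite strand. Ncapd2 was at 2.90 to 3.94 CPM among adventitia libraries, 2.51 CPM for intima replicate 1 and 72.5 CPM in replicate 2. Smc4 was at 58.9, 113 and 98.2 against 113 and 227 CPM (log2 difference 0.92, SE 0.52). Its partner Smc2 was the gene with the lowest log2 difference of the list, -0.89 (SE 0.85), at 16.6, 60.2 and 52.0 against 19.7 and 26.7 CPM. Cdca2, which recruits a phosphatase to chromosomes, was at 0.875 to 7.80 CPM among adventitia libraries and 3.37 and 41.2 CPM among intima libraries. Cdca5, sororin, which protects cohesion, had 2, 2 and 149 reads in the adventitia and 0 and 472 reads in the intima.

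**Figure D4:**
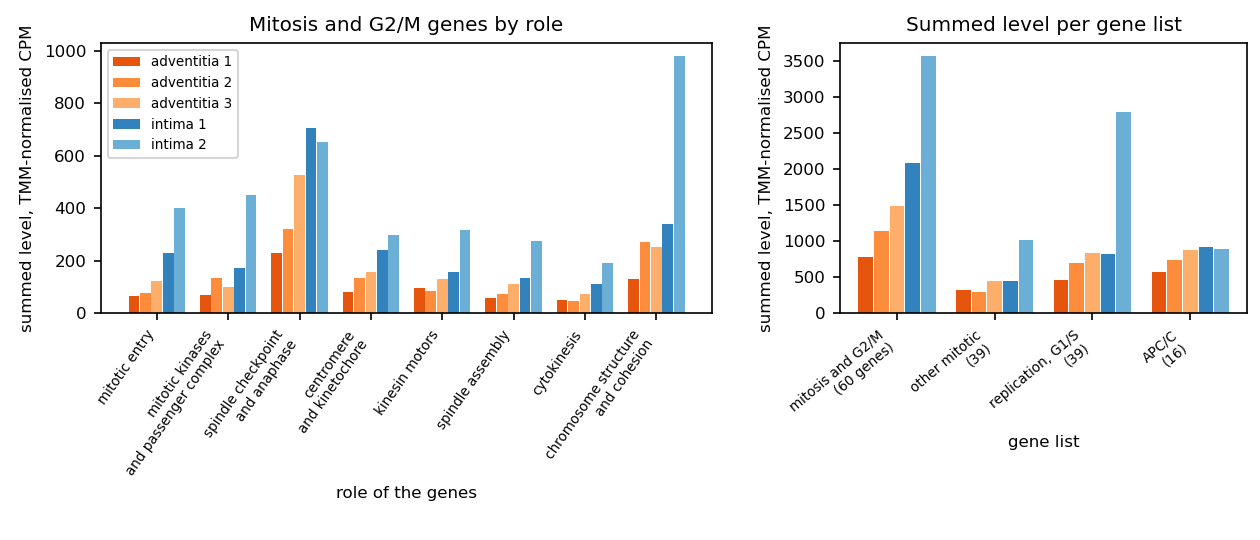
Summed level (y axis, TMM-normalised CPM) in each library (bars, 1 per library) for the 8 roles of the mitosis and G2/M genes (left) and for gene lists (right, number of genes in parentheses). Intima replicate 2 is the highest library for 7 of 8 roles, the exception being spindle checkpoint and anaphase genes, at 704 CPM for intima replicate 1 and 653 CPM in replicate 2.

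The disagreement between the intima libraries was itself larger in these genes than over all genes. Among the 57 tested genes at 5 CPM or more in at least 1 of the 2 libraries, 45 were higher in replicate 2 (all genes 52.4%), with a median log2 ratio of 1.53 against 0.11 for all genes, computed with 0.5 CPM added. More than 10-fold differences were seen for 23 of 57 (40.4%, all genes 25.9%), of which 21 were higher in replicate 2 (all genes 17.0%) and 2, Ndc80 and Pttg1, in replicate 1 (all genes 8.87%). With 1 library on each side this compares the libraries, not conditions. Of the 60 genes, 6 had no read in intima replicate 1, a library of 14970204 reads: Melk, Aurka, Ttk, Kif18b, Hmmr and Cdca5. In intima replicate 2 only Cdc25c had none. Over all 41388 genes, fewer had a read in the intima libraries, 17489 in replicate 1 and 16374 in replicate 2. The adventitia libraries, with fewer reads, had 23289, 25212 and 25738 such genes. Missing reads were therefore common in the intima libraries beyond the mitotic genes, and the part of this in the zeros and wide ratios was not tested. The mitotic sum was 1.71 times higher in replicate 2. Marker sums of other cells also differed between the 2 libraries, as given above for smooth muscle, neutrophil and T cell genes, and so did single endothelial genes, with Tek at 25.9 and 82.9 CPM and Cdh5 at 105 and 29.7 CPM, chosen after their values were seen. Their part in the mitotic difference was not tested.

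**Figure D5:**
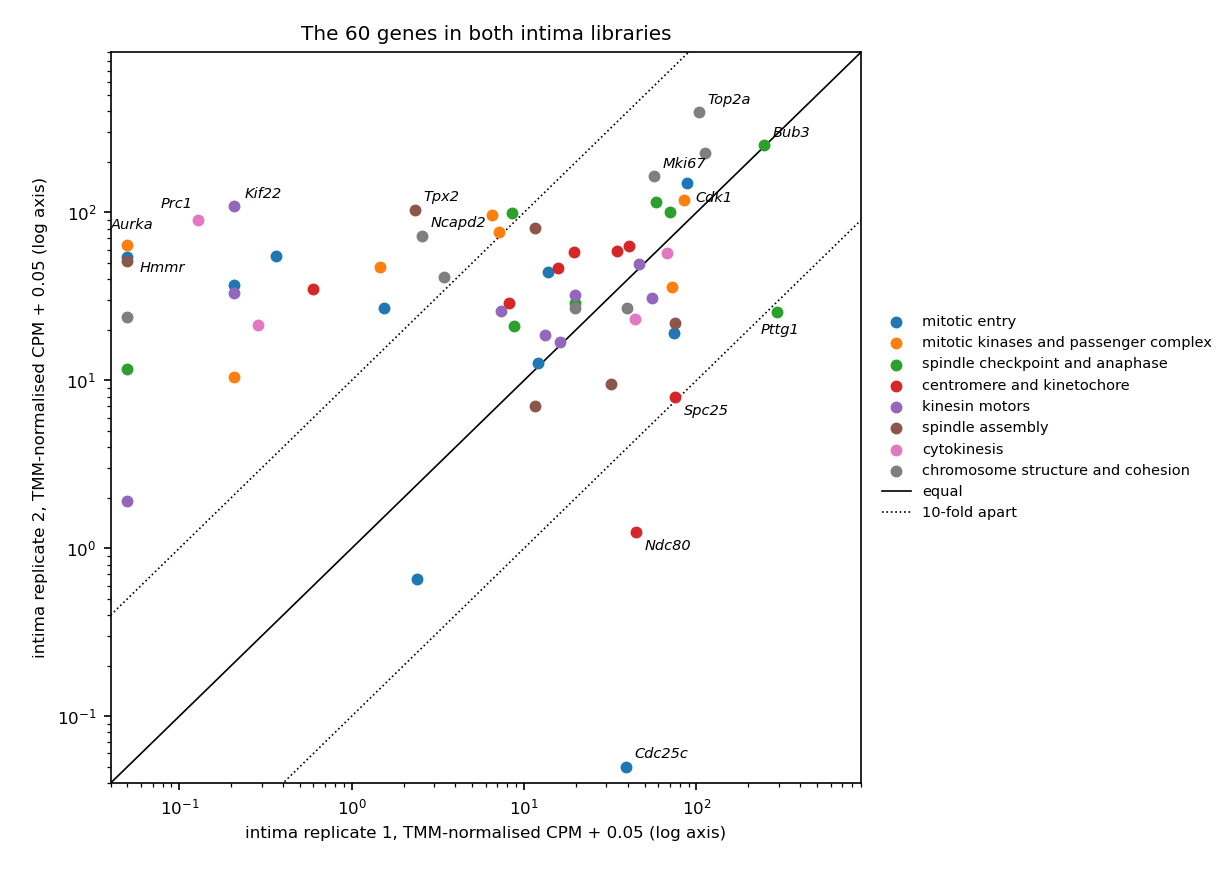
Level of each of the 60 genes in intima replicate 1 (x axis) and intima replicate 2 (y axis), as TMM-normalised CPM plus 0.05 on log axes, coloured by role. Points above the upper dotted line are more than 10-fold higher in replicate 2 (Prc1, Kif22 and Aurka among them), and Ndc80, Pttg1 and Cdc25c lie below the lower dotted line.

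The adventitia libraries also disagreed, less widely. More than 10-fold differences were seen for 8 of 44 genes between replicates 1 and 2 (18.2%, all genes 7.78%), 12 of 49 between 1 and 3 (24.5%, all genes 8.89%) and 6 of 51 between 2 and 3 (11.8%, all genes 6.43%). Adventitia replicate 1, with the fewest reads, was the lower library for 31 of 44 genes against replicate 2 (70.5%, all genes 58.1%). Against replicate 3 it was the lower for 40 of 49 (81.6%, all genes 57.7%). The part of depth in this was not tested. With all libraries thinned to the smallest, the median log2 ratio between the intima libraries was 1.10.

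Other genes of the cell cycle were described from lists that share no gene with the 60. None of their members was called by edgeR, and at an unadjusted p under 0.05 (all genes 8.16% higher and 14.3% lower) there were 2 higher and 2 lower of 36 other mitotic genes, 4 and 2 of 39 replication genes, 0 of 16 APC/C genes, 3 and 1 of 19 regulators, 0 and 2 of 13 inhibitors, and 3 and 0 of 12 growth genes. Of 39 other mitotic genes 36 were tested, with 28 above 0 and a median of 1.15 on the log2 scale. Hjurp, the chaperone that loads CENP-A, was at 40.9, 18.4 and 62.05 CPM among adventitia libraries and 19.5 and 125.5 CPM among intima libraries, and Cks1b, a CDK-binding subunit, at 2.19, 37.4 and 19.8 against 56.4 and 79.7 CPM. DNA replication and G1/S genes had a median of 1.52 over 39, with 32 above 0, and were the list with the widest gap between the intima libraries. Their summed level was 454, 690 and 827 CPM among adventitia libraries, 814 CPM for intima replicate 1, within the adventitia range, and 2786 CPM in replicate 2, a ratio of 3.42. Mcm3, a subunit of the replicative helicase, was at 17.1, 31.6 and 47.7 against 64.2 and 315.9 CPM. Pcna, the polymerase clamp, differed less, at 46.6, 78.2 and 90.1 against 97.4 and 102 CPM (log2 difference 0.47, SE 0.54). Both of its intima values lay above the adventitia range.

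The subunits of the APC/C are needed in resting cells too. Of its 16 genes 9 were above 0, at a median of 0.43, and they summed to 564, 731 and 877 CPM among adventitia libraries and 915 and 893 CPM among intima libraries. Anapc11 was at 85.1 to 244 CPM against 293 and 201 CPM, and Anapc13 at 126 to 206 against 150 and 29.9 CPM. Regulators of the E2F, DREAM and NF-Y type had a median of -0.44 over 19, with 9 above 0, also with Lin9 set at its bound. Rbbp4, a histone chaperone of MuvB, was at 1.97, 25.4 and 39.9 CPM among adventitia libraries against 77.6 and 140 CPM, and Rb1, the retinoblastoma protein, at 62.8, 37.7 and 68.3 against 60.1 and 16.01 CPM. Lin9, another MuvB subunit, named after its values were seen, was at 24.9, 6.85 and 23.1 CPM among adventitia libraries and without a read in the intima. With 3 reads over the group as floor, it was at least 181-fold lower there, without passing (edgeR adjusted p = 0.0868). Mybl2, which encodes B-MYB and was also chosen after its values were seen, was at 0.5004 to 1.75 CPM among adventitia libraries, 1.25 CPM for intima replicate 1 and 18.8 CPM in replicate 2. Cell cycle inhibitors had a median of -0.06 over 13 tested of 17, with 6 above 0, and their most abundant members, the antiproliferative genes Btg2 and Btg1, had log2 differences of 0.86 (SE 0.54) and -0.86 (SE 0.50). G1 cyclins and macrophage growth signals had a median of 0.74 over 12 tested of 13, with 8 above 0. Csf1r, the receptor for the macrophage growth factor CSF1, was at 1129, 1207 and 950 CPM against 869 and 1665 CPM, and Maf, a transcription factor that restrains macrophage division, at 1439, 1072 and 1260 against 1144 and 286 CPM.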

How the data were processed

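Per the labels' protocols, cDNA was made from lysed sorted cells with the SMARTer Ultra Low kit, amplified for 12 cycles and sequenced as single 50-base reads. GRCm38, featureCounts 1.4.5, Subread and STAR 2.0.4b are named in the submitters' processing notes. The deposited files give, per the file headers, the count of reads per gene, CPM and RPKM made by the authors. The deposited CPM and RPKM matched the counts at a relative tolerance of 1e-04. The annotation and the strand setting are not given in the sources used here.

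Counts were tested in edgeR 4.0.16 (R 4.3.3) with TMM scaling, a filter on low counts (filterByExpr, minimum 10 reads, total 15), the quasi-likelihood test and Benjamini-Hochberg adjustment over all 13408 genes, with a threshold of 0.05. DESeq2 1.42.0 and limma 3.58.1 were alternatives, beside other scalings, filters, thinned counts, a replicate block and leaving out each library. Intervals between the intima libraries are exact binomial at 95% and, like the floor of 3 reads, cover counting error only, since reads carry no molecular identifiers. On simulated counts of 12198 genes, the test found 100% of the genes given a 256-fold change, 94% of those given 64-fold, 62% for 16-fold and 14% for 4-fold, with 3 false among 138 calls. Only genes at a mean of 5 CPM or more were changed, and both groups were drawn with the same spread. In the data the coefficient of variation was 1.28 in the intima and 0.703 in the adventitia, so these shares may not hold here. The members and lists were chosen with earlier results of these data known. Every member is accounted for. Those described by rule were the first of each role, Mki67, Top2a, Ccnb1, Foxm1 and Aurkb, the 8 largest and 5 smallest log2 differences, the 5 highest and 5 lowest ratios between the intima libraries, and any called gene, with the 2 most abundant genes of each other list. The remaining members were added to complete each role.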

Additional observations from a re-analysis of the deposited data

How the results depend on the processing

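The count of mitotic genes called was 0 with all libraries in edgeR, 5 with DESeq2 (all genes 8.88%), 1 with limma voom (all genes 6.26%), 2 without a filter (all genes 1.22%) and 0 to 4 when 1 library was left out (all genes 0.0811% to 2.5%). The median log2 difference stayed above 0 throughout, from 0.74 with upper-quartile scaling to 1.44 without a filter, and from 0.53 to 1.79 when 1 library was left out. Other scalings moved the median of all genes from 0.14 to -0.015 (RLE), -0.094 (library size alone) and -0.35 (upper quartile). The count of genes without overlap between the groups in either direction, 17, was 8 with a minimum of 1 CPM in all libraries (33 genes tested) and 11 with thinned counts. It was 17 to 25 when 1 adventitia library was left out. The share over all genes was not computed for these settings. With 1 intima library it was 42 without replicate 1 and 46 without replicate 2, where non-overlap is common over all genes. Scaled with all libraries, intima replicate 1 was above the adventitia for 32.8% of all genes and below for 41.6%, and replicate 2 for 37.5% and 38.8%. The median log2 ratio between the intima libraries, 1.53, was 0.68 with the 1 CPM minimum, 1.10 with thinned counts, 1.39 with RLE, 1.69 with library size alone and 1.45 with upper-quartile scaling. The causes were not tested. Depth limits genes near 3 reads, worth 0.761 CPM in adventitia replicate 1.

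The labels do not say that the replicate numbers pair the libraries. Over replicates 1 and 2, deviations from the group mean had a correlation of 0.0244 between same-numbered libraries. This single value cannot decide whether the numbers pair. With the replicate number as a block, 1 gene was called (Top2a, all genes 1.36%), the median log2 difference was 1.33, and the log2 difference was -0.022 for Tpx2, -1.73 for Prc1, -0.49 for Foxm1, -0.39 for Cenpf, -1.18 for Ttk, -0.74 for Kif20a, -0.998 for Melk, -1.04 for Hmmr and -0.40 for Pttg1.

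Other settings changed the sign of log2 differences as follows. For Foxm1 it was -0.059 with DESeq2, -0.064 with RLE, -0.25 with library size alone, -0.062 with limma voom and -0.42 with upper-quartile scaling. For Cenpf it was -0.32 with the 1 CPM minimum, -0.18 with DESeq2, RLE and library size alone, -0.76 with thinned counts and -0.49 with upper-quartile scaling. For Kif20a it was -0.020 with DESeq2, -0.015 with RLE, -0.023 with limma voom, -0.49 with thinned counts and -0.28 with upper-quartile scaling. With limma voom it was -1.51 for Prc1, 0.15 for Kif23, -2.69 for Ttk, -1.87 for Melk, -1.92 for Hmmr and -0.71 for Pttg1. It was 0.028 for Kif23 without a filter, and -0.29 for Ttk and -0.065 for Pttg1 with upper-quartile scaling. When 1 library was left out, it ranged from -6.41 to 5.66 for Aurka, -1.21 to 1.98 for Aurkb, -1.06 to 0.55 for Cenpf, -1.37 to 0.80 for Foxm1, -8.78 to 2.98 for Hmmr, -6.19 to 4.15 for Kif20a, -4.11 to 5.37 for Kif22, -1.24 to 0.35 for Kif23, -9.01 to 2.82 for Melk, -0.42 to 4.21 for Ncapd2, -1.71 to 4.93 for Ndc80, -7.29 to 2.44 for Prc1, -2.39 to 1.35 for Pttg1, -1.84 to 2.05 for Spc25, -2.63 to 2.65 for Tpx2 and -8.56 to 1.44 for Ttk. Aurka, Hmmr, Melk and Ttk had 0 reads in intima replicate 1, and Prc1, Kif20a and Kif22 had 1 or 2. The low ends of their ranges rest on those reads and are not measured folds.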

Other observations

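The following genes were chosen after their values were seen, and none passed edgeR's test. Ccnd2, a D-type cyclin of G1, was at 26.5, 41.96 and 44.2 CPM among adventitia libraries and 80.7 and 364 CPM among intima libraries, a log2 difference of 2.56 (SE 0.64, edgeR adjusted p = 0.0868). Its kinase partner Cdk6 had equal levels in both intima libraries, 506 and 505 CPM, above 48.1, 98.5 and 247 CPM (log2 difference 1.94, SE 0.59, edgeR adjusted p = 0.113). Cdkn2c, which inhibits CDK4 and CDK6, was at 32.4, 32.9 and 37.03 CPM among adventitia libraries, against 2 and 80 reads (0.157 and 4.03 CPM) from the intima (log2 difference -4.01, SE 1.47, edgeR adjusted p = 0.144).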
